A study of Mus musculus with 30 samples.

Results

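Integrins are the transmembrane receptors through which mammary epithelial cells hold on to their matrix, and the mRNA of their subunits was followed here in luminal and basal cells. The gene set was given by name as Itga2, Itga3, Itga5, Itga6, Itgav, Itgb1, Itgb4, Itgb5, Itgb6 and Itgb8, a rule that uses no measured value, although earlier results of these data were known when it was set. Of these 10 genes, 9 are among the 11137 genes of the deposited table, and Itga5 is not analysed here. Each functional integrin is a pair of 1 alpha and 1 beta chain. In the mammary gland, basal cells rest on a laminin-rich basement membrane and bind it through pairs of the alpha 3 or alpha 6 chain with the beta 1 or beta 4 chain. Luminal cells touch that membrane less, and pairs of the alpha v chain with beta 5, beta 6 or beta 8 bind RGD-containing proteins such as latent TGF-beta, vitronectin and Mfge8.

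The libraries came from luminal and basal cells sorted from single female mice of mixed background. All mice carried K8rta, TETO CRE and the mTmG reporter and drank water with doxycycline (1 mg/ml), which by the labels ran from week 3 to week 8 of age and by the methods began in week 4. K8imTmG mice carried no other allele, whereas K8iΔRank mice also carried RANK fl/fl, so that Cre driven by the Krt8 promoter removes Rank from luminal cells and leaves it in basal cells. Parous glands had passed through pregnancy and involution, and parous K8iΔRank females failed to lactate. Luminal libraries came from 3 virgin K8imTmG, 3 virgin K8iΔRank, 5 parous K8imTmG and 4 parous K8iΔRank mice. The basal libraries were from 3 virgin K8imTmG, 4 virgin K8iΔRank, 4 parous K8imTmG and 4 parous K8iΔRank mice, and 13 mice gave both lineages. By the paper, luminal cells were sorted as GFP-positive, that is recombined, and surface antibodies were used to leave out lymphocytes and endothelial cells. Cells were gated on CD24 and CD49f, and the CD49f antibody binds the protein product of Itga6. A lineage difference in Itga6 is therefore part of how the cells were chosen. Itgb4 and Itgb1, whose proteins pair with that of Itga6, are not independent of the gate either.

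Levels are normalized counts, that is 3′-end reads deduplicated by molecular identifier and divided by a size factor per library. Recovered reads per library ranged from 340445 to 3130419, so 1 read was worth between 0.381 and 5.43 normalized counts. Rank, listed as Tnfrsf11a, ranged from 9.57 to 23.8 in virgin and from 12.8 to 64.9 in parous luminal libraries of both genotypes. Its mean in virgin luminal cells was 14.1 in K8imTmG and 18.1 in K8iΔRank, and in parous ones 39.5 and 33.7. These counts do not show the deletion, which the paper saw by qPCR in sorted luminal cells. The deleted exons are not given in the sources used here, and whether 3′-end reads cover them was not tested. Basal markers, 10 of 10 in the table, summed to 62.9 to 327 in luminal and 10764 to 17511 in basal libraries. Luminal markers, 14 of 14, summed to 4339.9 to 19018 in luminal and 446 to 1534 in basal libraries. Immune markers, with 3 of 12 in the table and Ptprc not among them, summed to 9.59 to 38.5 in luminal and 39.1 to 141 in basal libraries. Endothelial markers, 8 of 9, summed to 12.8 to 87.6 in luminal and 115 to 1409 in basal libraries, and fibroblast and pericyte markers, 9 of 9, to 103 to 961 and 700.3 to 1186. The 2 adipocyte markers of 6 in the table summed to 15.5 to 178 in luminal and 135 to 2669 in basal libraries. All 4 of these lists were higher in basal libraries, without overlap for the immune and endothelial sums, and their part in the integrin results was not tested. Within luminal libraries the basal sum was 102 to 327 in virgin K8iΔRank and at most 128 in the other groups. The libraries were also divided by the gene Clec2d, which read 65.6 to 199 in 14 libraries and 0.641 to 8.68 in the other 16. The high libraries were also shallower, with a median of 878946.5 reads against 2478110. The virgin K8imTmG luminal, virgin K8iΔRank basal and parous K8iΔRank luminal libraries were all on the low side, and the virgin K8iΔRank luminal, virgin K8imTmG basal and parous K8imTmG basal libraries all on the high side. For virgin mice, genotype and lineage differences cannot be told apart from this division, nor can parity in K8iΔRank luminal cells. In bulk RNA, fewer cells of a kind and less RNA per cell cannot be told apart.

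The bases before the canonical transcript of 3 of these genes are shown because the genes move in opposite directions between the lineages. Itga6 and Itgb1, whose proteins can pair, were the members with fully separate lineages and higher in basal cells. Itgb6 was the single member called higher in luminal cells, at low counts and at the edge of the filter on low values. Each line gives the 250 bases before the start of the canonical GENCODE vM39 transcript in GRCm39, at chr2:71616969-71617218 on the plus strand for Itga6, chr8:129411626-129411875 on the plus strand for Itgb1 and chr2:60504056-60504305 on the minus strand for Itgb6. For Itga6 and Itgb6 this window lies within the span of the gene, which begins further upstream. Capitals mark matches, on either strand, to a GC box (GGGCGG) or an E-box (CACCTG).
Itga6: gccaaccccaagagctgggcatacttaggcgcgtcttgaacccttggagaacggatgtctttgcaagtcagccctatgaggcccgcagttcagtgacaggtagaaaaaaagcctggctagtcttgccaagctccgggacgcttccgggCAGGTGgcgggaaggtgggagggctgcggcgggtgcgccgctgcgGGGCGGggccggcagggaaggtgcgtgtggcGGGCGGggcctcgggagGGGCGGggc
Itgb1: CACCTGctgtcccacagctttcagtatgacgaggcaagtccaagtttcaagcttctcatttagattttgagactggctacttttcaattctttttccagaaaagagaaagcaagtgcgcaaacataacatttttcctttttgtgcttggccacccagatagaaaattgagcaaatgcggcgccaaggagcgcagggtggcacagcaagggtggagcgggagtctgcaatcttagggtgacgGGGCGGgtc
Itgb6: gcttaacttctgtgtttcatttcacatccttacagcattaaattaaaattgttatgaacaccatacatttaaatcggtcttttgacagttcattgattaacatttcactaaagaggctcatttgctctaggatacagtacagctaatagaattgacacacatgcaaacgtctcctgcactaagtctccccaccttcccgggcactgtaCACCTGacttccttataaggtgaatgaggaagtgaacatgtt
A GC box lay in the windows of Itga3, Itga6, Itgb1, Itgb5 and Itgb8, and in 52% of the 10414 windows of protein-coding genes in the table. An E-box lay in those of Itga3, Itga6, Itgb1, Itgb5 and Itgb6, against 16.8% of all windows. TATAAA was found at Itgav, against 6.85% of all windows, and neither the AP-1 site TGACTCA nor the NF-κB site, present in 3.04% and 0.461% of all windows, was found at any of the 9 members. The Itga6 window held 67.6% G and C, that of Itgb1 48.8% and that of Itgb6 38.4%, against a median of 57.2% over all windows.

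Between lineages, 7 of the 9 members differed when the 4 conditions were averaged. Itga3, Itga6, Itgav, Itgb1, Itgb4 and Itgb8 were higher in basal cells, Itgb6 was higher in luminal cells, and Itga2 and Itgb5 did not pass the test. In the same fit 55.7% of all 11133 genes tested passed, 27% lower and 28.7% higher in luminal cells, so the share of members is to be read against a table in which most genes differed. The test was limma on log2(normalized count + 1) with Benjamini-Hochberg adjustment at 0.05, and log2 differences are luminal minus basal. The plot of levels by library shows every value behind these statements.

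**Figure D1:**
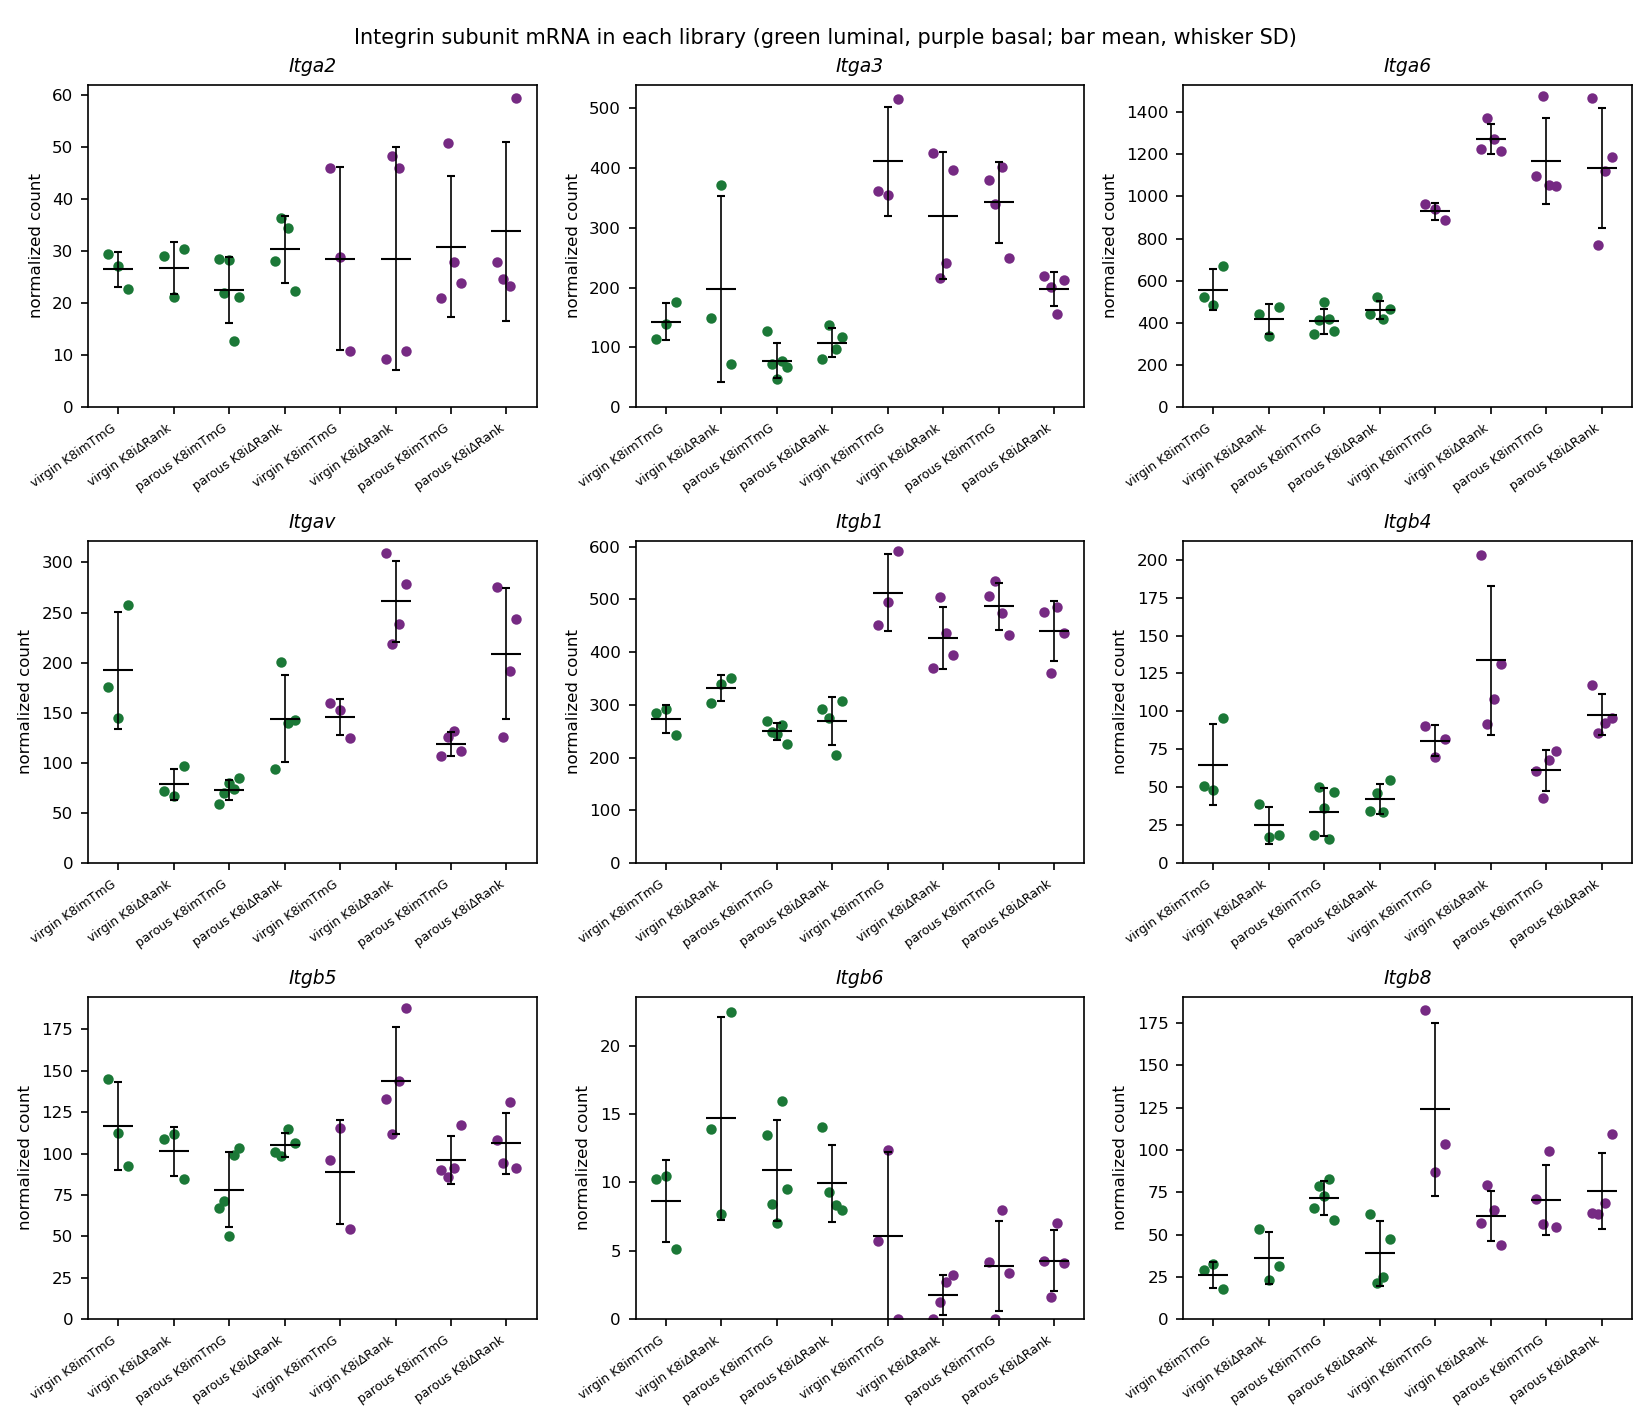
Normalized count of each of the 9 integrin subunits (vertical axes, from 0) in the 30 libraries, by group, with luminal groups in green and basal groups in purple. Points are libraries, bars are group means and whiskers are SD. Itga6 and Itgb1 show no overlap between lineages, with luminal libraries up to 667 and 351 and basal libraries from 769.9 and 361.

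Among the laminin receptors, Itga6 encodes the alpha 6 chain and lies at chromosome 2, 71575960 to 71689757 on the plus strand (ENSMUSG00000027111.18). It read from 336 to 667, with a median of 442, in the 15 luminal libraries and from 769.9 to 1474, with a median of 1121, in the 15 basal libraries. Every basal library was above every luminal one, and the log2 difference was -1.29 (standard error 0.09, limma adjusted p = 1.15e-12). Within a mouse the luminal library was lower in 13 of 13 pairs. Its value is tied to the CD49f gate, as described above.

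Itgb1, at chromosome 8, 129411876 to 129460618 on the plus strand (ENSMUSG00000025809.17), encodes the beta 1 chain, the partner shared by the collagen, laminin and fibronectin receptors. It read from 205 to 351 (median 276) in luminal and from 361 to 592 (median 474) in basal libraries. The lineages did not overlap here either, and Itgb1 was lower in the luminal library in 13 of 13 mice. Its lineages stood apart by less than those of Itga6 on the log2 scale (-0.73, standard error 0.08, limma adjusted p = 4.84e-09).

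Itga3 encodes the alpha 3 chain of the laminin-332 receptor and lies at chromosome 11, 94935296 to 94967682 on the minus strand (ENSMUSG00000001507.18). Luminal libraries ranged from 47.2 to 371 (median 113) and basal libraries from 156 to 516 (median 339.7). The overlap came from 2 luminal libraries, virgin K8iΔRank mouse 822 at 371 and virgin K8imTmG mouse 538 at 177. The log2 difference was -1.38 (standard error 0.18, limma adjusted p = 9.57e-08), with the luminal library lower in 12 of 13 mice.

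Itgb4, at chromosome 11, 115865333 to 115899239 on the plus strand (ENSMUSG00000020758.17), encodes the beta 4 chain that anchors hemidesmosomes to keratin filaments. It read from 16.0 to 95.7 (median 39.1) in luminal and from 42.8 to 203 (median 90.5) in basal libraries. The ranges overlapped, the luminal library was lower in 12 of 13 mice, and the log2 difference was -1.24 (standard error 0.17, limma adjusted p = 4.85e-07). Its 3′ end overlaps that of Galk1 on the other strand, and the strand setting of the authors' counting is not given in the sources used here.

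Itga2 encodes the alpha 2 chain of the collagen receptor and lies at chromosome 13, 114969617 to 115068636 on the minus strand (ENSMUSG00000015533.10), inside the span of Mocs2 on the other strand. It ranged from 12.8 to 36.4 (median 28.2) in luminal and from 9.23 to 59.5 (median 27.9) in basal libraries. The basal values spread more widely, with an SD of 15.9 against 5.97, and the log2 difference was -0.03 (standard error 0.24, limma adjusted p = 0.931). Its sign turned when the Clec2d side was a term or when any of 9 single libraries was left out.

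Of the alpha v group, Itgav itself (ENSMUSG00000027087.13, chromosome 2, 83554403 to 83637260, plus strand) read from 58.8 to 258 (median 93.6) in luminal and from 107 to 309 (median 159) in basal libraries. The 2 lineages overlapped widely, the luminal library was lower in 10 of 13 mice, and the log2 difference was -0.64 (standard error 0.12, limma adjusted p = 4.06e-05). Itgb5, the beta chain of a vitronectin receptor (ENSMUSG00000022817.17, chromosome 16, 33649988 to 33771137, plus strand), ranged from 50.3 to 145 in luminal and from 54.3 to 188 in basal libraries. Its log2 difference was -0.10 (standard error 0.12, limma adjusted p = 0.522), with 9 of 13 mice lower in luminal cells.

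Itgb8, whose chain pairs with alpha v in a receptor that frees active TGF-beta, lies at chromosome 12, 119121748 to 119202584 on the minus strand (ENSMUSG00000025321.16). Luminal libraries read from 17.7 to 83.1 (median 47.2) and basal libraries from 44.0 to 182 (median 68.7). The log2 difference was -0.98 (standard error 0.17, limma adjusted p = 9.58e-06) and 10 of 13 mice were lower in the luminal library.

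Itgb6, at chromosome 2, 60428636 to 60553035 on the minus strand (ENSMUSG00000026971.17), encodes the other TGF-beta activating partner of alpha v and is known from epithelia. It was low everywhere, at 5.15 to 22.5 normalized counts (median 9.52) in luminal and 0 to 12.4 (median 3.41) in basal libraries. In reads, this was 234 over all luminal and 59 over all basal libraries, and 3 basal libraries had none. The luminal library was higher in 12 of 13 mice, and the log2 difference was 1.59 (standard error 0.34, limma adjusted p = 0.000225), a value that depends on the pseudocount at such counts. Itgb6 entered this test mostly through luminal libraries above the filter of 10 normalized counts, the lineage where it is higher. Among the 30 fits without 1 library it was tested in only 22, so the call sits at the edge of the filter. It did not pass the filter on low values in the fits of basal libraries alone or of the 16 Clec2d-low libraries alone. The same held for the lineage fits of parous mice and for the test of lineage by stage in K8iΔRank mice.

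Averaged over conditions, these 7 calls were the same with the Clec2d side as a term in the fit. On the 14 Clec2d-high libraries alone 7 members also passed, 6 lower and 1 higher in luminal cells, as did 3941 of 10897 genes. On the 16 low ones 7 of the 8 tested passed, all lower in luminal cells, and they included Itgb5 (log2 difference -0.44, limma adjusted p = 0.0381), and 4817 of 10797 genes passed. With mouse number as a block, in the 13 mice with both lineages, 6 of 8 members tested passed, as did 6158 of 11064 genes.

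The lineage difference varied with stage and genotype, as the plot by condition shows. In virgin K8imTmG mice 4 members passed, against 36.2% of all genes, with Itga3 (-1.52, limma adjusted p = 0.00211), Itga6 (-0.75, 0.0223), Itgb1 (-0.90, 0.00989) and Itgb8 (-2.16, 0.00236) lower in luminal cells. With the block by mouse Itga3 (-1.34, limma adjusted p = 0.0158) and Itgb8 (-2.43, 0.000756) passed, and Itga6 and Itgb1 did not (0.209 and 0.106). The Itga6 call was also lost without the luminal library of mouse 531 or 533 or the basal library of mouse 531 or 538. In virgin K8iΔRank mice 4 members also passed, against 35.9% of all genes, but they were Itga6 (-1.62, limma adjusted p = 0.000195), Itgav (-1.72, 0.000243) and Itgb4 (-2.40, 0.000658), lower in luminal cells, and Itgb6 (2.57, 0.012), higher. Itgb6 read 7.69 to 22.5 in luminal and 0 to 3.22 in basal libraries there. It thus entered that test only through luminal libraries above the filter of 10, the lineage where it is higher. Of the 7 fits without 1 library, Itgb6 was tested in 5. The 4 passing in parous K8imTmG mice, against 30.7% of all genes, were Itga3 (-2.17, limma adjusted p = 6.39e-05), Itga6 (-1.52, 5.78e-05), Itgav (-0.69, 0.00967) and Itgb1 (-0.96, 0.000339). In parous K8iΔRank mice 5 passed, against 37% of all genes, namely Itga3 (-0.88, limma adjusted p = 0.00512), Itga6 (-1.27, 0.000572), Itgb1 (-0.71, 0.0103), Itgb4 (-1.21, 0.000697) and Itgb8 (-1.03, 0.0307). That of Itgb8 was lost on the Clec2d-low libraries alone (-0.86, 0.139) and without luminal mouse 794 or 798 or basal mouse 830. Itga6 was thus the member that passed in all 4 conditions, and it is the gated one.

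**Figure D2:**
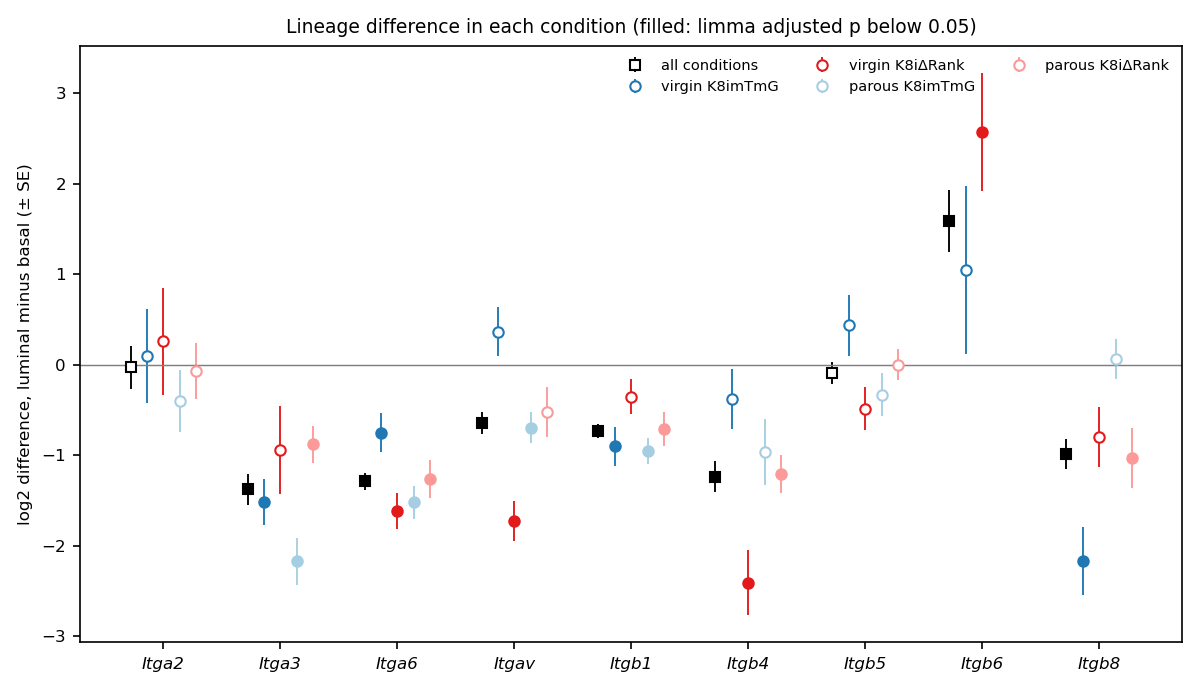
Log2 difference of luminal minus basal libraries (vertical axis, with the standard error) for each member, over all conditions (squares) and in each of the 4 conditions (circles). Filled symbols have a limma adjusted p below 0.05, and Itgb6 was not tested in parous mice. Itgav stands at 0.37 in virgin K8imTmG and at -1.72 in virgin K8iΔRank mice, and Itgb8 at -2.16 in virgin and 0.06 in parous K8imTmG mice.

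**Figure D3:**
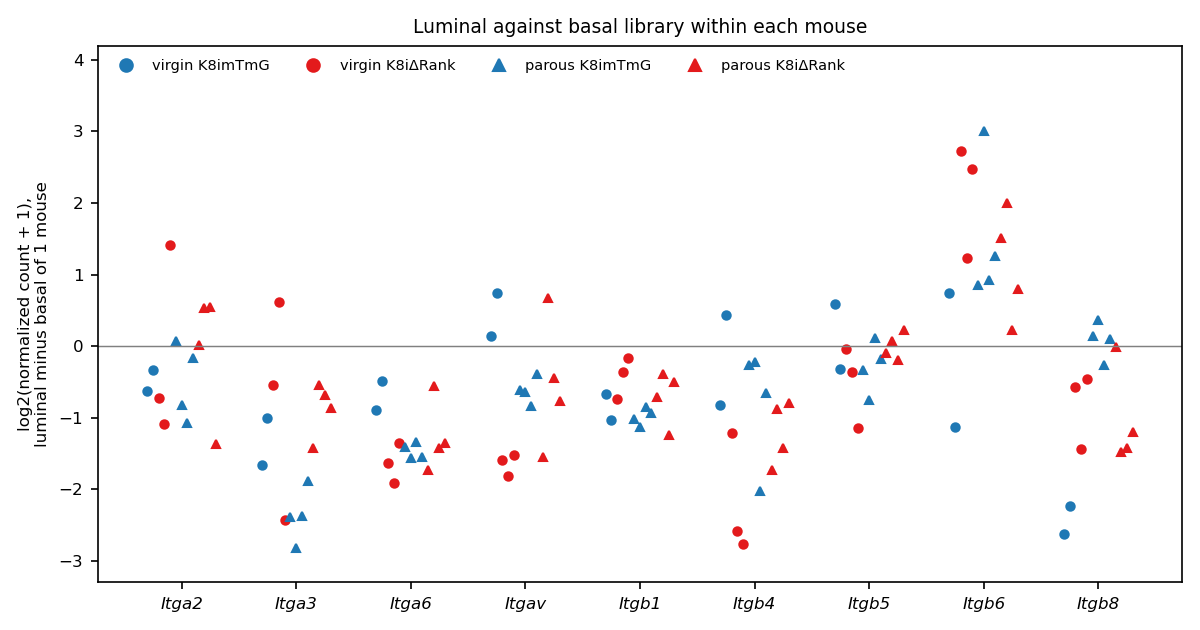
Difference in log2(normalized count + 1) between the luminal and the basal library of 1 mouse (vertical axis) for each member in the 13 mice with both, with circles for virgin, triangles for parous, blue for K8imTmG and red for K8iΔRank. All 13 mice lie below 0 for Itga6 and Itgb1 and 12 of 13 above 0 for Itgb6.

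Whether the lineage difference itself changed was tested for 4 pairs of conditions, a set of tests added after the data had been seen. In virgin mice the difference depended on genotype for Itga6 (-0.87, standard error 0.27, limma adjusted p = 0.0319), Itgav (-2.09, standard error 0.34, limma adjusted p = 0.00105) and Itgb4 (-2.03, standard error 0.51, limma adjusted p = 0.0125), where 22% of all genes passed. In both lineages this contrast is also one of Clec2d-high with Clec2d-low libraries, so it cannot be told apart from that division. Only Itgav passed with the mouse block (1 of 9 members), and Itga6 and Itgb4 had adjusted p of 0.145 and 0.07 there. The Itga6 call was further lost without the luminal library of mouse 538 or 822 or the basal library of mouse 538, 568, 821 or 822. Without the basal libraries of mice 820 and 825 Itgav alone passed as well (-1.91, limma adjusted p = 0.00606). In K8imTmG mice the lineage difference of Itgb8 depended on stage (2.22, standard error 0.42, limma adjusted p = 0.0458), where 0.127% of all genes passed. With the mouse block it was 2.51 with an adjusted p of 0.0517, and of the 15 fits without 1 library it passed only in that without luminal mouse 494. In K8iΔRank mice no member passed between stages, with 2 of 8 at an unadjusted p below 0.05 and 10.6% of all genes called, and 1 member was called by DESeq2. Between genotypes of parous mice no member and 0% of all genes passed, with 2 of 8 members and 706 of 10913 genes at an unadjusted p below 0.05. DESeq2 called 12 genes and edgeR 2 there, none of them a member.

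The luminal levels of Itgav moved in opposite directions with parity in the 2 genotypes. They were 176, 145 and 258 normalized counts in the 3 virgin K8imTmG libraries and 71.9, 67.3 and 96.4 in the 3 virgin K8iΔRank libraries. In parous mice they were 58.8, 69.6, 80.3, 73.5 and 84.8 in the 5 K8imTmG libraries and 93.6, 200.4, 139.9 and 143 in the 4 K8iΔRank libraries. Virgin K8imTmG and parous K8iΔRank libraries were thus the high ones, and the other 2 luminal groups overlapped each other at lower levels. In K8imTmG mice Itgav fell with parity by 1.35 on the log2 scale (standard error 0.24, limma adjusted p = 0.0285) and the groups did not overlap. On the 6 Clec2d-low libraries of this comparison alone it was -1.25 (limma adjusted p = 0.0208). In K8iΔRank mice it rose with parity by 0.84 (standard error 0.26, limma adjusted p = 0.0498), with 1 parous library inside the virgin range, and this call sits at the threshold. The 3 virgin libraries of this comparison were all Clec2d-high and the 4 parous ones all Clec2d-low, so the rise cannot be told apart from that division. Itgav was the 1 member called there, against 16% of all genes, and the call was lost in 6 alternatives, including edgeR (adjusted p = 0.0525), and without mouse 821, 822, 794, 798 or 830.

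The genotype difference of Itgav in luminal cells was -1.26 in virgin (standard error 0.29, limma adjusted p = 0.064) and 0.93 in parous mice (standard error 0.22, limma adjusted p = 0.102), each without overlap. Neither passed, and no member did, where 0.984% of all genes passed in virgin and 0.0991% in parous luminal cells. Unadjusted, 2 members were below 0.05 in each, Itgav and Itgb4 in virgin and Itgav and Itgb8 in parous mice, as were 2226 of 10066 genes in virgin and 2009 of 10090 in parous mice. DESeq2 called 1 member in each, of 648 and 611 genes. The test of the difference between these 2 genotype effects gave 2.18 for Itgav (standard error 0.36, limma adjusted p = 0.00765) and called 2 members, where 12.9% of all genes passed. The virgin genotypes in this test lie on opposite Clec2d sides, so it cannot be told apart from that division. On the Clec2d-low libraries alone the parous difference of Itgav was 0.83 (limma adjusted p = 0.0847), whereas no virgin value within a side can be had.

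The other member of that test was Itgb4 (1.80, standard error 0.57, limma adjusted p = 0.0496). In luminal cells it read 50.6, 48.2 and 95.7 in virgin K8imTmG, 39.1, 17.3 and 18.5 in virgin K8iΔRank, 18.5, 50.4, 36.6, 16.0 and 46.7 in parous K8imTmG and 34.6, 46.2, 34.0 and 54.6 in parous K8iΔRank libraries. Within the parous K8imTmG group the 2 Clec2d-high libraries were at 18.5 and 16.0 and the 3 Clec2d-low ones at 36.6 to 50.4, without overlap, and the high ones held 11 and 5 reads. In the other group with both sides, parous K8iΔRank basal cells, the sides overlapped, at 86.1 and 95.7 on the high and 92.4 and 117 on the low side. The call was lost under 4 alternatives, with 0.81 (limma adjusted p = 0.137) under array quality weights as the smallest value. Leaving out 1 library ended it in 11 of 15 fits, and it remained without mouse 821, 532, 534 or 558.

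**Figure D4:**
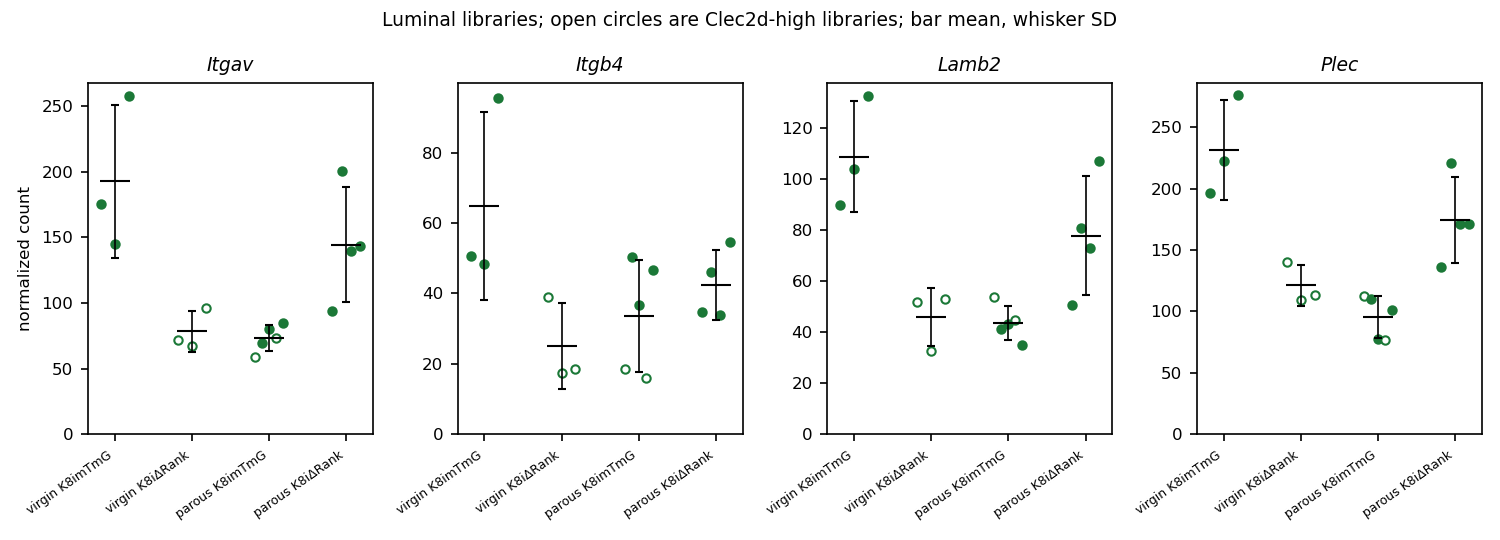
Normalized count (vertical axes, from 0) in the 15 luminal libraries of Itgav and Itgb4 and of Lamb2 and Plec, by group, with Clec2d-high libraries as open circles, group means as bars and SD as whiskers. The virgin K8imTmG group has the highest mean for all 4 genes, and the open circles of parous K8imTmG mice lie below the filled ones for Itgb4.

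Itgb8 rose with parity in K8imTmG luminal cells. Its levels were 28.8, 32.5 and 17.7 in the 3 virgin K8imTmG libraries and 65.5, 78.8, 72.8, 83.1 and 58.4 in the 5 parous ones, without overlap. The change on the log2 scale was 1.44 (standard error 0.25, limma adjusted p = 0.0286). With Itgav, 2 of 9 members passed in this comparison, where 2.2% of all genes did. On the Clec2d-low libraries alone Itgb8 stood at 1.41 (limma adjusted p = 0.0218), and Itga3 was then also lower in parous mice (-1.19, limma adjusted p = 0.0247). In K8iΔRank mice luminal Itgb8 was 53.0, 23.1 and 31.7 in virgin and 62.0, 21.6, 25.1 and 47.2 in parous libraries. These overlapped, and the change with parity was 0.07 (standard error 0.40, limma adjusted p = 0.925). The difference between the genotypes in this parity effect was -1.38 (standard error 0.50, limma adjusted p = 0.0727) and missed the threshold. The calls of Itgav and Itgb8 with parity in K8imTmG luminal cells were lost in 6 and 7 of the 8 fits without 1 library, with adjusted p up to 0.118 and 0.107. The Itgav call remained without mouse 494 or 534 and that of Itgb8 without mouse 494.

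In basal cells, which keep Rank by design, 1 member of 8 passed between genotypes in virgin mice, against 8.99% of all genes. Itgav read 159, 153 and 125 in virgin K8imTmG and 309, 218, 238 and 278 in virgin K8iΔRank basal libraries, without overlap (log2 difference 0.83, standard error 0.21, limma adjusted p = 0.0385). Without the K8iΔRank mice 820 and 825, whose Krt18 of 421 and 394 stood above the 97.4 and 111 of the other 2, it was 0.65 (limma adjusted p = 0.107). It was also lost without any 1 of mice 531, 538, 568, 820, 822 and 825, and at 0.69 (limma adjusted p = 0.294) without the libraries under 500000 reads. Those 2 libraries were also the highest of their group for Itga3 (426 and 396 against 216 and 242), Itgav and Itgb4 and the lowest for Itga2 (9.23 and 10.7 against 48.4 and 46.1), Itga6, Itgb1 and Itgb8. Itgb8 in virgin basal cells read 56.5, 79.4, 64.3 and 44.0 in K8iΔRank and 182, 86.8 and 103 in K8imTmG libraries, without overlap and not called (log2 difference -0.97, limma adjusted p = 0.0783).

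In parous basal cells no member passed between genotypes, where 0.906% of all genes did. Unadjusted, 3 of 8 were below 0.05, Itga3 (-0.78), Itgav (0.75) and Itgb4 (0.68), as were 2393 of 10592 genes, and DESeq2 called 1 member among 645 genes. Itgav read 107, 126, 131 and 111 in K8imTmG and 275, 126, 191 and 243 in K8iΔRank libraries, and the lowest of the latter, from mouse 794, was on the Clec2d-high side together with the one at 243. Over the 8 fits without 1 library the difference ranged from 0.60 to 0.98, with limma adjusted p from 0.0158 to 0.294. The largest difference, 0.98, came without mouse 794 (limma adjusted p = 0.0158). Between the Clec2d-high libraries of both genotypes the Itgav difference was 0.56 (limma adjusted p = 0.597).

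With parity in basal cells no member and 0% of all genes passed in either genotype, although DESeq2 called 40 genes in K8imTmG and 89 in K8iΔRank mice, none of them a member. Unadjusted, 969 and 1036 genes were below 0.05. At an unadjusted p below 0.05 stood 1 of 8 members in each, Itgb8 in K8imTmG (-0.78) and Itga3 in K8iΔRank mice (-0.65). The difference between genotypes in the effect of stage in basal cells likewise called no member and 0% of all genes, with Itgb8 alone (1.07) and 1082 genes below 0.05 unadjusted. DESeq2 called 10 genes and edgeR 0 there, none of them a member. The plot of genotype and parity effects gathers these values.

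**Figure D5:**
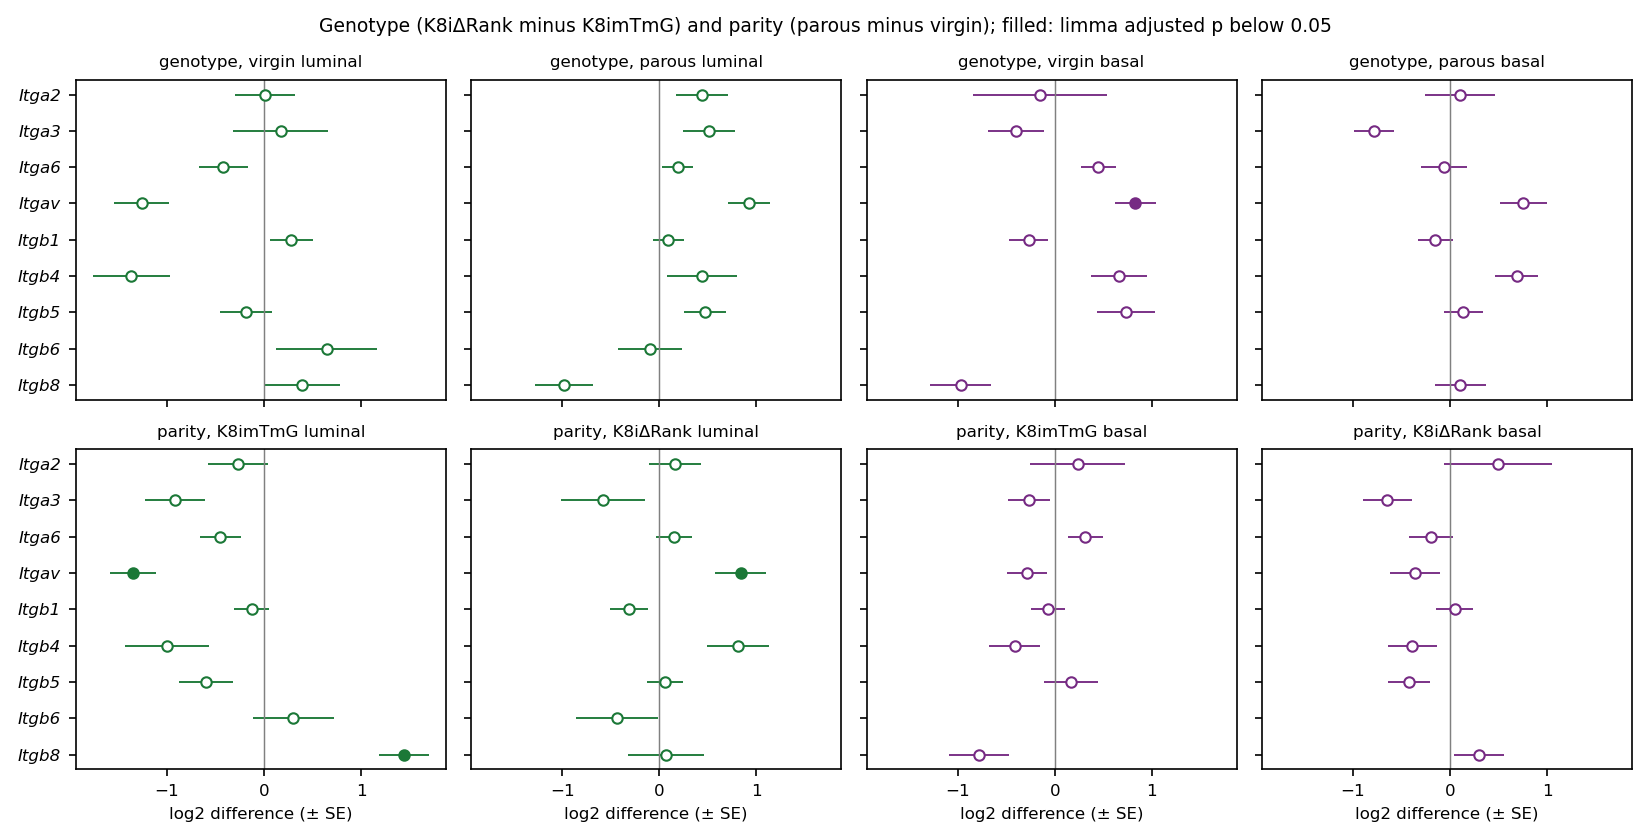
Log2 difference with its standard error (horizontal axes) for each member in the 4 genotype comparisons (upper panels, K8iΔRank minus K8imTmG) and the 4 parity comparisons (lower panels, parous minus virgin), with luminal cells in green and basal cells in purple. Filled symbols have a limma adjusted p below 0.05, which holds for Itgav in 3 panels and for Itgb8 in 1, and Itgb6 was not tested in basal cells.

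The order of the 8 group means was split by lineage for Itga6 and mixed for Itgav and Itgb8. For Itga6 it ran from basal virgin K8iΔRank at 1270.5 ± 70.7 (SD, n = 4) down to luminal parous K8imTmG at 407 ± 60.6 (SD, n = 5), and neighbours in this order overlapped except at the step from basal to luminal groups. For Itgav it ran from basal virgin K8iΔRank at 261 ± 40.7 (SD, n = 4) over basal parous K8iΔRank at 209 ± 65.3 (SD, n = 4) and luminal virgin K8imTmG at 193 ± 58.3 (SD, n = 3) to luminal parous K8imTmG at 73.4 ± 10.1 (SD, n = 5). Its neighbours overlapped except at the step from basal parous K8imTmG, at 119 ± 11.6 (SD, n = 4), to luminal virgin K8iΔRank, at 78.6 ± 15.7 (SD, n = 3). Itgb8 was highest in basal virgin K8imTmG at 124 ± 51.1 (SD, n = 3) and lowest in luminal virgin K8imTmG at 26.3 ± 7.73 (SD, n = 3), both from virgin K8imTmG mice, and all neighbours in its order overlapped.

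Most ligands of these receptors were called between lineages, as were 55.7% of all genes, and mostly as higher in basal cells. The fibroblast and pericyte markers (9 of 9 higher in basal cells, median -2.44) and the endothelial markers (8 of 8, median -2.79) moved by a like amount, and their part in the ligand values was not tested. Of 17 laminins and other basement membrane ligands in the table, 15 were higher in basal and 1 in luminal cells, with a median log2 difference of -2.32 against 0.04 over all genes. Lama3, a chain of laminin-332, was at -4.23 and Lama1 at -5.04, whereas Npnt, the nephronectin ligand of alpha 8 beta 1, was at 3.08. Of 15 RGD and interstitial ligands, 12 were higher in basal and 2 in luminal cells, the latter Mfge8 (1.29), an alpha v ligand made by milk-secreting cells, and Spp1 (1.28), osteopontin. Of 7 TGF-beta forms and latent binding proteins, Ltbp1 (3.15), Tgfb3 (0.88) and Tgfb1 (0.77) were higher in luminal cells and Ltbp4 (-4.70) and Ltbp2 (-3.53) in basal cells. The other integrin subunits in the table, 5 of 18 listed, were all higher in basal cells, among them Itga9 (-5.04), Itga1 (-5.11) and Itgb3 (-2.36).

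Inside the cell, 20 of 27 talin, kindlin and focal adhesion adaptors were higher in basal and 3 in luminal cells. Of all genes tested, 27% were called higher in basal and 28.7% higher in luminal cells. Tgfb1i1, the adaptor Hic-5, was at -5.43 and the tensin Tns4 at -4.21, while the kinases Ptk2b (3.75) and Ptk2 (0.63) were higher in luminal cells. Of 7 hemidesmosome partners, 5 were higher in basal cells, with Col17a1 at -6.61, and Lad1 (2.67) was higher in luminal cells. Inhibitors and trafficking factors went both ways, as all genes did, with 5 of 14 higher in basal and 4 in luminal cells, the latter led by Rab25 (3.56), a small GTPase of integrin recycling. Tetraspanins and lateral partners likewise went both ways, at 3 of 11 and 4 of 11, with Slc3a2 (-1.10) and Cd82 (2.65) as examples. Krt5 and Krt14 of the hemidesmosome list are also basal markers.

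In luminal cells, a few ligand and hemidesmosome genes passed in the genotype and parity comparisons described for Itgav. Lamb2, the laminin beta 2 chain, read 89.7, 104 and 132 in virgin K8imTmG, 51.7, 32.7 and 52.8 in virgin K8iΔRank, 53.8, 41.2, 43.2, 44.7 and 35.05 in parous K8imTmG and 50.6, 80.6, 73.0 and 107 in parous K8iΔRank libraries. It passed with parity in K8imTmG mice (-1.29, limma adjusted p = 0.0285) and in the test of the difference between genotype effects (2.03, 0.00786). Plec, the plectin that ties beta 4 to keratins, read 196, 223 and 276, then 140.1, 109.6 and 114, then 113, 110.0, 77.2, 76.7 and 101, and 136, 221, 171 and 171 in these groups in the same order. It passed with parity in K8imTmG mice (-1.28, limma adjusted p = 0.0285) and in the test of the difference (1.79, 0.00765). For both genes the virgin K8imTmG libraries lay above all parous K8imTmG ones. These comparisons share libraries, so the values of a gene in them are not separate evidence. The test of the difference cannot be told apart from the Clec2d division.

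Among RGD ligands, Spp1 rose with parity in luminal cells of K8imTmG (5.38, limma adjusted p = 0.0227) and K8iΔRank mice (3.26, 0.00118). Its group means went from 6.77 ± 10.7 (SD, n = 3) to 155 ± 30.2 (SD, n = 5) in K8imTmG and from 20.2 ± 6.53 (SD, n = 3) to 211 ± 87.4 (SD, n = 4) in K8iΔRank mice. Tnc, tenascin-C, rose in K8imTmG (4.09, 0.0285) and Mfge8 in K8iΔRank mice (1.26, 0.00392). Of the TGF-beta group, 4 of 6 rose with parity in K8iΔRank luminal cells, among them Ltbp3 (1.15, limma adjusted p = 0.00392), Tgfb2 (1.61, 0.00426) and Ltbp2 (1.81, 0.0078), where 16% of all genes passed. In K8imTmG mice 0 of 6 passed, where 2.2% of all genes did, and the test of the difference between the genotypes called 1 of 6 higher and 1 lower. The K8iΔRank comparison cannot be told apart from the Clec2d division. In the same comparison in K8iΔRank mice the adaptors Parva (1.14), Tln1 (0.66) and Git1 (0.85) rose and Bcar1 (-1.50) and Actn1 (-0.58) fell, the trafficking factors Rab25 (0.74) and Snx17 (0.82) rose, Agrn (0.87) and Cd47 (0.93) rose, and Cd9 (-1.20), Cd63 (-1.08) and Sdc1 (-0.83) fell. In K8imTmG luminal cells the corresponding calls were Tns3 (2.12) and Cd44 (1.84), both higher in parous mice.

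In virgin basal cells the genotype calls of the lists included Agrn (1.01), Mfge8 (1.61), Tgfb2 (1.20), Tns4 (1.28) and Plec (0.79), higher in K8iΔRank, and Ccn1 (-3.77), Ccn2 (-3.84), Kank2 (-0.87), Cd63 (-1.29) and Cd9 (-1.05), lower. By list, 2 of 17 basement membrane ligands, 1 of 7 TGF-beta genes, 1 of 26 adaptors and 1 of 7 hemidesmosome partners were higher. Lower were 1 of 14 inhibitors and trafficking factors and 2 of 11 tetraspanins and partners. Of 15 RGD ligands 1 was higher and 2 lower, and 0 of 5 other integrin subunits passed. In this comparison 8.99% of all genes passed, and it cannot be told apart from the Clec2d division. In parous mice no gene of these ligand, adaptor and partner lists passed between genotypes in either lineage. Of all genes, 0.0991% passed there in luminal and 0.906% in basal cells. With parity in basal cells no gene of these lists and 0% of all genes passed in either genotype. Of the luminal markers, Cldn4, a claudin of tight junctions, passed between genotypes in parous basal cells (2.07, limma adjusted p = 0.035), 1 of 12 tested, against 0.906% of all genes.

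The genes most like each member were sought as a description, by Pearson's r over the 30 libraries after the group means were subtracted and over the 8 group means. For Itga6 these were Sdf2l1 (0.84) and Csnk1a1 (0.81) over libraries and Zfp219 (1.00) and Dstn (0.99) over groups. For Itgav they were Fah (0.76) and Nemf (0.75) over libraries and Capn2 (0.97) over groups. Itgb8 was most like Lamc1 (0.78), the laminin gamma 1 chain, and Dock9 (0.76) over libraries and like Man2a1 (0.98) and Pde7a (0.98) over groups.
For Itgb4 they were Prpsap1 (0.85) over libraries and Luzp1 (0.99) and Slc6a9 (0.99) over groups. Those for Itgb1 were Sub1 (0.72), Tmtc2 (0.67), Pdgfrl (0.99) and Lgals7 (0.99), and those for Itga3 Mink1 (0.87), Tmem106c (0.82), Rtl8a (0.98) and Hspb1 (0.97), in the same order. Itgb6 was nearest to Elmod3 (0.81), Lyrm9 (0.81), Dlg1 (0.99) and Gpx1 (0.98), Itgb5 to Zfp420 (0.76), Trim12a (0.72), Dbn1 (0.95) and Lrrk1 (0.95), and Itga2 to N4bp2 (0.83), Itprid2 (0.83), Ilf2 (0.91) and Rnpc3 (0.83). Between members, Itga6 and Itgav had an r of 0.68 over the 30 libraries with group means subtracted, and Itgav and Itgb4 one of 0.41, while Itga6 and Itgb4 stood at 0.19. The points share library depth and size factor, and over 8 group means most of the variation is the lineage split.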

How the data were processed

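RNA of luminal and basal mammary cells, sorted from mice by the authors, was sequenced from the 3′ end with molecular identifiers (QuantSeq 3′ FWD). According to the methods and the submitters' processing notes, reads were trimmed with BBDuk, aligned to GRCm39 with Bowtie2, deduplicated with UMI-tools and counted on GENCODE vM26. The strand setting of the counting and RNA integrity per library are not given in the sources used here. The deposited values are a signal, namely the authors' gene counts divided by DESeq2 size factors (normalized counts), for 11137 genes in 30 libraries. Each value was a whole multiple of 1 read per library within a tolerance of 0.01 (100% of values), which gave back the reads. They numbered 340445 to 3130419 per library, and 3 libraries had under 500000. Intervals were not computed, and precision rests on replicates. Over 43 pairs of libraries of 1 group, chi-square per degree of freedom was at least 2.67, so no library was a copy of another in its group. Pairs across groups were not compared.

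Groups follow the labels, with 0 columns left unused. A gene was tested where 25% or more of a comparison's libraries exceeded a normalized count of 10. The test was run on log2(normalized count + 1) with limma 3.58.1 in R 4.3.3, with Benjamini-Hochberg adjustment over all genes tested at 0.05. Each comparison was fitted on its own groups, and lineage over all conditions on the 8 groups. Mice are the replicates. Same-numbered libraries come from 1 mouse per the labels (13 mice, correlation of deviations from group means -0.238 to 0.341, median 0.0897), so a fit with mouse as a block was an alternative. edgeR 4.0.16 and DESeq2 1.42.0 on the recovered reads, other pseudocounts, filters and scalings, array quality weights and left-out libraries were further alternatives. The fits were tested on simulated data, where limma found 199 of 199 changed genes for lineage over all conditions, 18 of 198 for lineage in virgin K8imTmG mice and 2 of 199 for lineage by genotype in virgin mice. The spread between libraries and the size of the changes were set by hand, not taken from the data. These counts therefore do not give the power of the reported tests.

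Members (by name), gene lists and tests were chosen with earlier results of these data known. Named are all members, at most 3 genes per list and direction among those with an adjusted p below 0.05, taken by lowest adjusted p, and the 2 genes most like each member by Pearson's r, apart from a few genes that are not reported here. Gene positions and the 250 bases before the start of each canonical transcript are from GENCODE vM39 on GRCm39. Levels are not compared between genes. Figures were drawn with matplotlib 3.10.9.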

Additional observations from a re-analysis of the deposited data

Results flagged for a closer look

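The values of each member were examined in each group of 4 or 5 libraries, which made 45 sets. In 3 of them 1 library lay far from the others, and chance gives about 1 such set in 20. The sets share libraries, so they are not separate from each other. Itga2 read 59.5 in the basal library of parous K8iΔRank mouse 830, against 23.3 to 27.9 in the other 3, and Itgb8 read 109 in the same library, against 62.2 to 68.7. Itga6 read 1474 in the basal library of parous K8imTmG mouse 534, against 1049 to 1097 in the other 3.

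Other results differed between groups by a test of the difference itself. The luminal genotype difference changed with stage for Itgav by 2.18 and for Itgb4 by 1.80 on the log2 scale. The virgin luminal genotypes in this contrast lie wholly on opposite Clec2d sides, so it cannot be told apart from that division, and the Itgb4 call was lost in 11 of 15 fits without 1 library. The lineage difference changed with stage in K8imTmG mice for Itgb8 by 2.22. In virgin mice it changed with genotype for Itga6 (-0.87), Itgav (-2.09) and Itgb4 (-2.03), with the same limit.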

How the results depend on the processing

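Of 808 alternatives to the 34 called values of single members, 717 kept the call, 91 lost it and none turned its direction. Of the 34 calls, 22 held under every alternative in which the member was tested. Alternatives in which a member fell below the filter on low values are not in these counts and were not taken as lost. For Itgb6 between lineages over all conditions, only 22 of 30 fits without 1 library were counted. Of 405 alternatives for the count of members called, 86 moved it by over 1.5 times, and the cause was not tested. For lineage in virgin K8imTmG mice the count of 4 became 1 without libraries under 500000 reads and 2 with the replicate block. The 0 for genotype in virgin luminal cells became 1 with a mean of at least 50, DESeq2 or 1 fit over the lineage and 2 with array quality weights. In parous luminal cells the 0 became 2 with weights and 1 with DESeq2. The 1 for genotype in virgin basal cells became 2 with quantile normalization, DESeq2 or 1 fit and 0 without libraries under 500000 reads or without mice 820 and 825, the latter chosen after seeing the data. In parous basal cells the 0 became 1 with a mean of at least 50 or DESeq2 and 3 with weights. With parity, the 2 of K8imTmG luminal cells became 5 with weights, and the 1 of K8iΔRank luminal cells became 0 with a pseudocount of 0.5, no filter, quantile normalization, weights, edgeR or 1 fit. For genotype by stage in luminal cells the 2 became 1 with a pseudocount of 0.5, no filter, a mean of at least 50 or edgeR. For lineage by stage the 1 of K8imTmG mice became 0 with a pseudocount of 0.5, edgeR, the paired block or no libraries under 500000 reads, and the 0 of K8iΔRank mice became 1 with a pseudocount of 4, a mean of at least 50, quantile normalization or DESeq2. For lineage by genotype the 3 of virgin mice became 1 with the block, without libraries under 500000 reads or without mice 820 and 825, and the 0 of parous mice became 1 with weights.

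Leaving out 1 library gave 6 to 7 members for lineage over all conditions, 3 to 4 in virgin K8imTmG, 3 to 5 in virgin K8iΔRank, 4 to 5 in parous K8imTmG and 4 to 6 in parous K8iΔRank mice. It gave 0 to 0 for genotype in either luminal stage, 0 to 1 in virgin and 0 to 2 in parous basal cells, 0 to 3 and 0 to 1 for parity in K8imTmG and K8iΔRank luminal cells and 0 to 0 in basal cells. It gave 1 to 2 for genotype by stage in luminal and 0 to 0 in basal cells, 0 to 1 and 0 to 2 for lineage by stage in K8imTmG and K8iΔRank mice, and 2 to 3 and 0 to 0 for lineage by genotype in virgin and parous mice. The uncalled lineage difference of Itga2 (-0.03) turned to 0.16 on the Clec2d-low libraries alone and to 0.00087 with the Clec2d side as a term, and ranged from -0.17 to 0.082 without 1 library, with the positive values from 0.00078 upward. With the mouse block, the calls of the remaining comparisons that could be paired kept their counts within 1.5 times. Depth limits Itgb6 most, since its basal libraries held 0 to 16 reads.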
